A study of Sus scrofa with 11 samples.

Results

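The 10 genes described here, IER3, IER2, FOS, FOSB, JUN, JUNB, EGR1, ATF3, MYC and DUSP1, are immediate early and stress response genes, taken as a list of names and looked up by symbol in an expression table of pig liver. All 10 were found among the 12505 genes of the table, of which 10561 carried a symbol, and all 10 passed the filter on low values. The series compared livers that had received hepatic irradiation with livers of control pigs, and its title names veno-occlusive liver disease and ferroptosis. The groups were 2 control libraries labelled day 0, and 3 libraries each at 20 Gy, 30 Gy and 40 Gy, all labelled day 35. Every library is labelled WT, with liver as the tissue and hepatocyte as both cell type and cell line, although the RNA was extracted from livers. No further allele, agent or age is given in the sources used here. Day and irradiation changed together against control and cannot be told apart, whereas the doses were compared at a single day.

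Immediate early genes are transcribed within minutes of a growth, injury or stress signal, from promoters that are already primed and without the need for new protein. MAP kinase and calcium signals reach SRF, its ELK partners and CREB at these promoters, and the proteins made include transcription factors (the FOS and JUN families, EGR1, ATF3, MYC) and inhibitors that shut the same signal off (DUSP1). In liver they are known for their burst after partial removal of the organ and after ischemia.

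Levels are FPKM, fragments scaled by gene length and by the mapped fragments of a library, so they can be compared between genes. Between libraries they also depend on how much of a library its most abundant genes take, and the summed FPKM ran between 520839 in 40Gy-1 and 949840 in 40Gy-3. Changes are differences of log2(FPKM + 1), given with a standard error (SE) and a p adjusted by the Benjamini-Hochberg method from a limma fit to all 11 libraries, and a gene was called at an adjusted p under 0.05. That p rests on the spread among libraries, which may be technical, since the labels do not state that each library is a different pig.

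The libraries were not all equally distinct. 30Gy-1 and 30Gy-2 were nearly identical, and so were 20Gy-3 and 30Gy-3, which carry different dose labels. Over 6519 genes the log2 ratio within these pairs had an SD of 0.177 and 0.179, against 0.346 to 1.22 in the other 53 pairs, although no value was identical. The lower-dose libraries grouped across dose. 20Gy-1 was closest to 20Gy-3 and 30Gy-3 (SD 0.347 and 0.346), and 20Gy-2 to 30Gy-1 and 30Gy-2 (0.353 and 0.380). Pairs between these sets had 0.643 to 0.734. 40Gy-1 was closest to 20Gy-2, 30Gy-1 and 30Gy-2 (0.794, 0.840 and 0.848). It was farther from 40Gy-2 and 40Gy-3 (1.04 and 1.08) than from control-1 and control-2 (0.936 and 0.965). Among the 10 genes, the ratio of 30Gy-3 to 20Gy-3 lay between 0.909 and 1.13. 30Gy-1 and 30Gy-2 were therefore averaged for group means, which rest on n = 3 at 20 Gy and at 40 Gy and on n = 2 in control and at 30 Gy, whereas the fit keeps them separate. Below, results of the 10 genes are also given with this 30 Gy pair averaged, with the cross-dose pair 20Gy-3 and 30Gy-3 omitted, and with both settings at once. For related genes both settings at once are given, and not every other alternative that ended a call is named. Between 10236 and 10866 genes reached 1 FPKM in a library, and the sequencing depth is unknown.

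In IER3 and IER2 every 40 Gy library lay above all other libraries, which held for 7.69% of all genes tested. IER3 encodes a small early response protein that modulates cell survival (ENSSSCG00000027607, chromosome 7, 23265560 to 23266905 in Sscrofa11.1). It had 1.97 and 3.02 FPKM in the control libraries, 17.8, 2.64 and 16.7 FPKM at 20 Gy, 2.21, 2.63 and 19.0 FPKM at 30 Gy, and 32.97, 33.06 and 32.46 FPKM at 40 Gy. The 3 libraries at 40 Gy lay above every other library and within a ratio of 1.02 of each other, while 20 Gy and 30 Gy each held both control-like and higher libraries. Its group means were 2.50 ± 0.745 FPKM in control, 12.4 ± 8.48 at 20 Gy, 10.7 ± 11.7 at 30 Gy and 32.8 ± 0.323 at 40 Gy (SD), of which 40 Gy alone stood clear of its neighbours in rank, while 20 Gy, 30 Gy and control overlapped.

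IER2, a nuclear protein induced by growth factors (ENSSSCG00000013753, chromosome 2, 65909638 to 65912491), had 21.0 and 27.6 FPKM in control, 27.8, 30.0 and 22.2 FPKM at 20 Gy, 22.7, 18.1 and 22.5 FPKM at 30 Gy, and 41.3, 44.6 and 36.7 FPKM at 40 Gy. Again each 40 Gy library lay above all others, and the remaining groups overlapped. The group means were 24.3 ± 4.69 FPKM in control, 26.7 ± 4.004 at 20 Gy, 21.4 ± 1.48 at 30 Gy and 40.9 ± 3.97 at 40 Gy (SD).

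**Figure D1:**
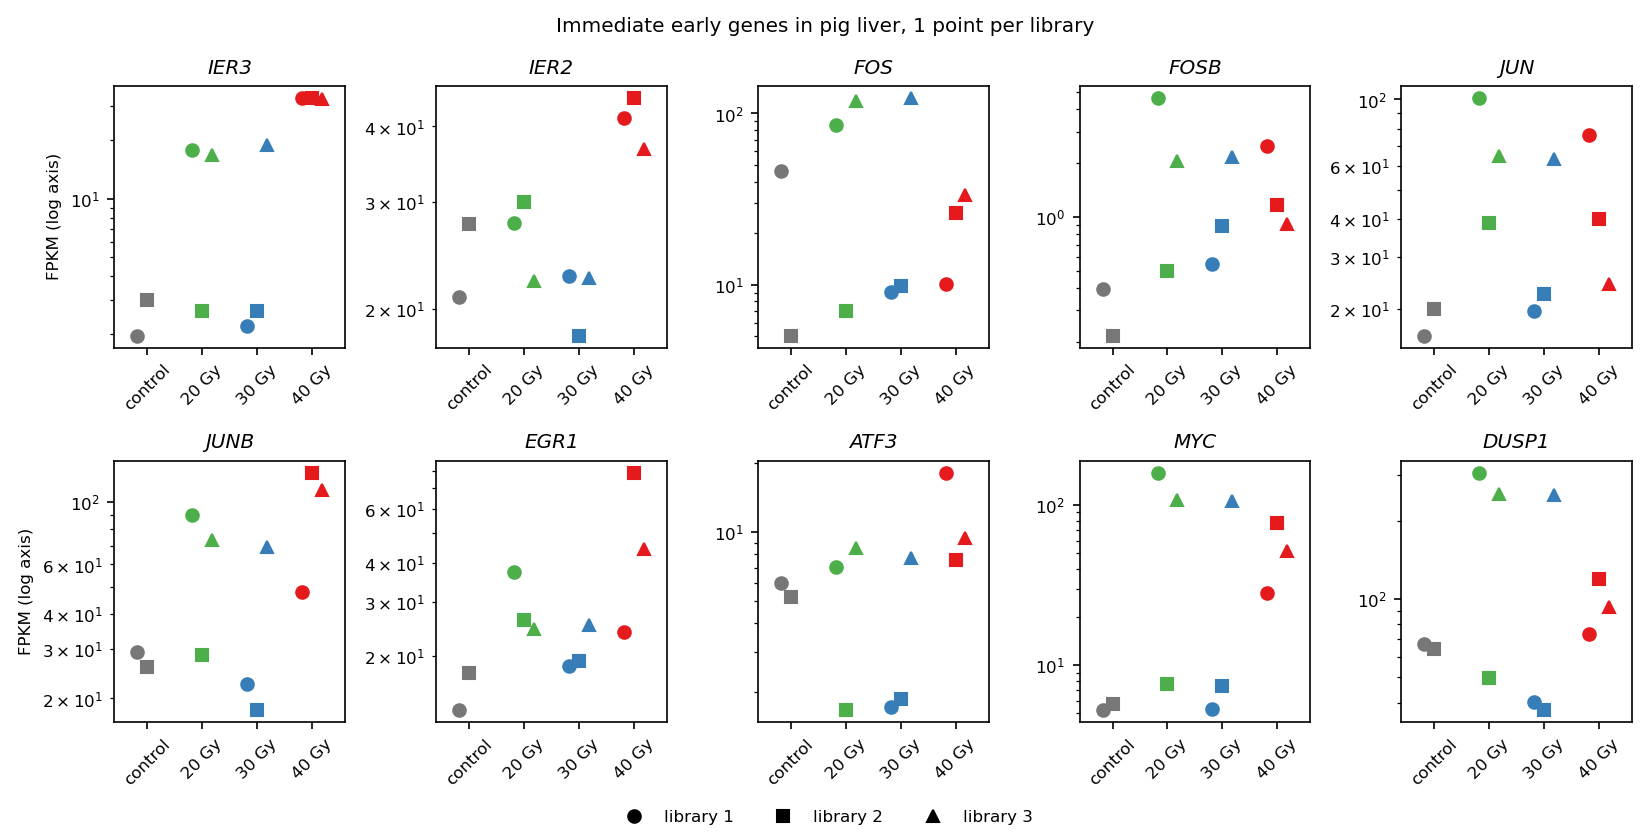
FPKM of each of the 10 genes on a log axis whose range differs by panel, 1 point per library, with groups from control to 40 Gy along the x axis and the point shape giving the library number. At 20 Gy and 30 Gy most panels show libraries far apart within a dose, as in MYC with 7.64 against 159 FPKM at 20 Gy, whereas the 40 Gy points of IER3 lie together between 32.5 and 33.1 FPKM.

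The FOS family members, which pair with JUN proteins to form the transcription factor AP-1, varied widely within the irradiated groups. FOS (ENSSSCG00000002383, chromosome 7, 98449508 to 98451971) had 46.2 and 5.04 FPKM in control, 85.6, 6.99 and 119 FPKM at 20 Gy, 9.03, 9.80 and 123 FPKM at 30 Gy, and 10.1, 26.4 and 33.4 FPKM at 40 Gy. It was the 1 gene of the 10 whose 40 Gy libraries overlapped with control, and the 2 control libraries themselves lay far apart. Its group means were 25.6 ± 29.1 FPKM in control, 70.5 ± 57.5 at 20 Gy, 66.4 ± 80.5 at 30 Gy and 23.3 ± 11.96 at 40 Gy (SD), and no neighbours in this order differed beyond their spread.

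FOSB (ENSSSCG00000031616, chromosome 6, 51836780 to 51844531), the least abundant of the 10 in every group, had 0.397 and 0.216 FPKM in control, 4.63, 0.495 and 2.05 FPKM at 20 Gy, 0.543, 0.892 and 2.15 FPKM at 30 Gy, and 2.48, 1.17 and 0.911 FPKM at 40 Gy. All 9 irradiated libraries lay above both controls, and the 3 doses overlapped. The group means were 0.307 ± 0.128 FPKM in control, 2.39 ± 2.09 at 20 Gy, 1.44 ± 1.02 at 30 Gy and 1.52 ± 0.840 at 40 Gy (SD), levels at which an offset of 1 FPKM shrinks a fold change.

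JUN, the central AP-1 subunit (ENSSSCG00000031912, chromosome 6, 153686425 to 153687635), had 16.4 and 20.1 FPKM in control, 101, 38.8 and 64.8 FPKM at 20 Gy, 19.7, 22.5 and 63.2 FPKM at 30 Gy, and 76.4, 40.0 and 24.3 FPKM at 40 Gy. Both 20 Gy and 40 Gy lay wholly above control, and 30Gy-1 fell between the 2 control values. The means were 18.2 ± 2.67 FPKM in control, 68.3 ± 31.4 at 20 Gy, 42.1 ± 29.8 at 30 Gy and 46.9 ± 26.7 at 40 Gy (SD), and the 3 doses did not separate.

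JUNB, an AP-1 subunit that often tempers JUN (ENSSSCG00000013735, chromosome 2, 66214086 to 66219435), had 29.3 and 25.9 FPKM in control, 89.9, 28.6 and 73.2 FPKM at 20 Gy, 22.6, 18.1 and 69.5 FPKM at 30 Gy, and 47.7, 127 and 111 FPKM at 40 Gy. 40Gy-2 and 40Gy-3 were the highest libraries of the series, 40Gy-1 lay between the low and the high libraries of the lower doses, and 30Gy-1 and 30Gy-2 lay below both controls. Its means were 27.6 ± 2.44 FPKM in control, 63.9 ± 31.7 at 20 Gy, 44.9 ± 34.7 at 30 Gy and 95.2 ± 42.0 at 40 Gy (SD).

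EGR1, a zinc finger transcription factor of the growth response (ENSSSCG00000014336, chromosome 2, 140440829 to 140445302), had 13.3 and 17.5 FPKM in control, 37.4, 26.1 and 24.4 FPKM at 20 Gy, 18.5, 19.2 and 25.2 FPKM at 30 Gy, and 23.9, 78.8 and 44.4 FPKM at 40 Gy. Every irradiated library lay above both controls, the lowest of them by little, and 40Gy-1 sat among the lower doses. The means were 15.4 ± 3.003 FPKM in control, 29.3 ± 7.06 at 20 Gy, 22.1 ± 4.48 at 30 Gy and 49.1 ± 27.8 at 40 Gy (SD).

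ATF3, a stress-induced factor of the ATF/CREB family (ENSSSCG00000015595, chromosome 9, 130772259 to 130829678), had 6.01 and 5.20 FPKM in control, 7.02, 1.67 and 8.52 FPKM at 20 Gy, 1.72, 1.86 and 7.74 FPKM at 30 Gy, and 18.2, 7.58 and 9.44 FPKM at 40 Gy. Here 20Gy-2, 30Gy-1 and 30Gy-2 lay below both controls and all other irradiated libraries above them. Its means were 5.61 ± 0.576 FPKM in control, 5.73 ± 3.60 at 20 Gy, 4.77 ± 4.21 at 30 Gy and 11.7 ± 5.65 at 40 Gy (SD), and the first 3 of these did not differ beyond their spread.

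MYC, a transcription factor of growth and ribosome production (ENSSSCG00000005965, chromosome 4, 12455141 to 12460360), had the widest range. It had 5.22 and 5.76 FPKM in control, 159, 7.64 and 108 FPKM at 20 Gy, 5.35, 7.38 and 106 FPKM at 30 Gy, and 28.3, 77.1 and 51.9 FPKM at 40 Gy. The highest irradiated library had 29.8 times the lowest, 20Gy-2, 30Gy-1 and 30Gy-2 were near control, and 40 Gy lay between these and the high libraries of the lower doses. The means were 5.49 ± 0.379 FPKM in control, 91.7 ± 77.2 at 20 Gy, 56.2 ± 70.5 at 30 Gy and 52.5 ± 24.4 at 40 Gy (SD).

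DUSP1, a phosphatase that switches off MAP kinases (ENSSSCG00000016991, chromosome 16, 51457924 to 51461095), had the highest mean of the 10 in every group, at 40 Gy by little (95.4 FPKM, with JUNB at 95.2 FPKM) and without being the highest gene in any single 40 Gy library. It had 67.4 and 64.1 FPKM in control, 308, 49.8 and 255 FPKM at 20 Gy, 40.2, 37.3 and 252 FPKM at 30 Gy, and 73.4, 119 and 93.2 FPKM at 40 Gy. Both 30Gy-1 and 30Gy-2, and also 20Gy-2, lay below the controls, the 40 Gy libraries above them, and 20Gy-1, 20Gy-3 and 30Gy-3 far above all others. Its means were 65.7 ± 2.31 FPKM in control, 204 ± 136 at 20 Gy, 146 ± 151 at 30 Gy and 95.4 ± 23.1 at 40 Gy (SD). DUSP1 lies 41 bases from an annotated long noncoding RNA and IER3 394 bases from FLOT1, no gene of the 10 overlaps another gene, and the sources do not say whether reads were assigned by strand.

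The sum of the 10 levels gives 1 value per library, in which abundant genes such as DUSP1 weigh most and FOSB least. It was 207 and 174 FPKM in control, 838, 193 and 694 FPKM at 20 Gy, 143, 138 and 691 FPKM at 30 Gy, and 355, 556 and 437 FPKM at 40 Gy. The 40 Gy libraries thus lay above control without overlap, and the 6 libraries of the lower doses fell on both sides of them.

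**Figure D2:**
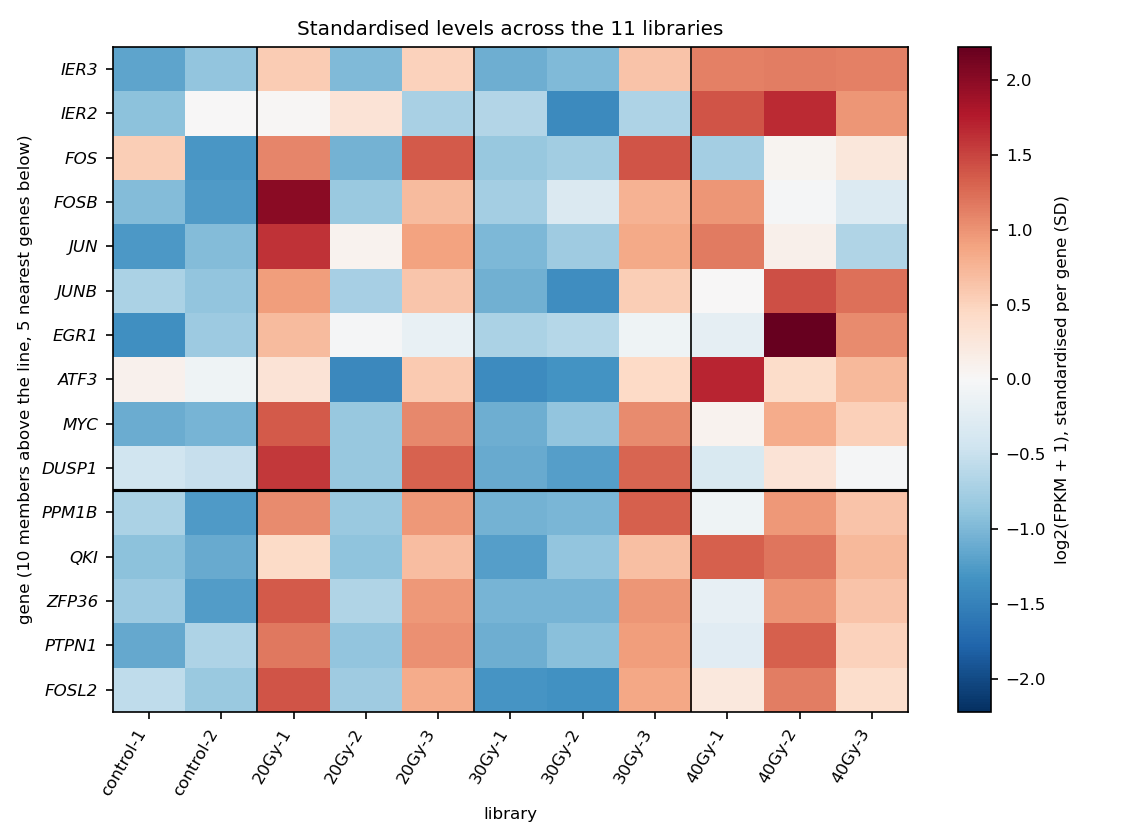
Level of each gene, log2(FPKM + 1) standardised to a mean of 0 and an SD of 1 over the 11 libraries, with the 10 genes above the line and the 5 genes of the nearest profile below it, and libraries in columns from control to 40 Gy. Most rows are red in 20Gy-1, 20Gy-3 and 30Gy-3 and blue in the other libraries of these doses, and IER2 and EGR1 depart from this. IER3, IER2, JUNB, EGR1 and ATF3 have their highest value in a 40 Gy library.

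The same 3 libraries were high in most of the genes. 20Gy-1, 20Gy-3 and 30Gy-3 were the 3 highest of the 6 libraries at 20 Gy and 30 Gy in 8 of the 10 genes, all but IER2 and EGR1, and the 3 lowest in none. Of all 11644 genes tested, 22.3% had these libraries as the 3 highest and 30.1% as the 3 lowest. The libraries were picked out after their values had been seen, 20Gy-3 and 30Gy-3 are nearly identical, as are 30Gy-1 and 30Gy-2 among the lower ones, and no test is made between them. The summed level of 9 of 10 macrophage markers moved with the same split, at 341, 732 and 346 FPKM at 20 Gy and 736, 729 and 356 FPKM at 30 Gy, against 899 and 675 FPKM in control, and was thus lowest where the 10 genes were mostly high. That of 4 of 5 erythroid markers was 59.4, 236 and 99.3 FPKM at 20 Gy and 342, 336 and 91.3 FPKM at 30 Gy, against 833 and 109 FPKM in control, with HBM and AHSP listed at 0 in some libraries. 20Gy-1, 20Gy-3 and 30Gy-3 were also the 3 lowest of the 6 in other marker sums. These were hepatocytes (44099, 47931 and 48318 FPKM, against 50326 to 54410 FPKM), stellate cells and myofibroblasts, B and plasma cells, and bile duct cells. Sums of endothelial, neutrophil, and T and NK cell markers did not hold this order. The part of any of these cells in the split was not tested. The gluconeogenic enzyme PCK1 had 1639, 102 and 1599 FPKM at 20 Gy and 96.4, 94.5 and 1614 FPKM at 30 Gy, the same order, but 1550 and 1401 FPKM in control, where the 10 genes were mostly low. At 40 Gy PCK1 had 303, 1866 and 1898 FPKM. It was lowest in 40Gy-1, as were FOS, JUNB, EGR1, MYC and DUSP1, whereas ATF3, JUN and FOSB were highest there.

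The same order was counted in other genes of the pathway, as a description beside the 22.3% of all genes in which it held. It was found in 24 of 32 other immediate early genes, such as the nuclear receptor NR4A1, which had 24.0, 2.12 and 17.8 FPKM at 20 Gy and 1.47, 1.63 and 16.8 FPKM at 30 Gy, and in 15 of 24 feedback inhibitors, such as TNFAIP3, an inhibitor of NF-kappaB signalling, which had 31.8, 2.22 and 24.6 FPKM at 20 Gy and 2.20, 1.96 and 25.6 FPKM at 30 Gy. It was also found in 4 of 9 other AP-1 and related factors, in 4 of 8 genes of the MYC network and, close to the share of all genes, in 8 of 28 genes of the signalling that leads to immediate early genes. Heat shock genes mostly had the 3 libraries lowest, in 11 of 15 beside 30.1% of all genes, such as the chaperone HSPA8, with 70.7, 256 and 94.0 FPKM at 20 Gy and 324, 328 and 89.6 FPKM at 30 Gy. Listed targets of AP-1, EGR1 and MYC had them lowest in 13 of 21 and highest in 2. NR4A1, TNFAIP3 and HSPA8 were chosen as examples after their values had been seen.

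Against control, the 9 irradiated libraries taken as the mean of their 3 dose groups gave no call among the 10 genes. The limma fit called 0 of 10, against 4.71% of all genes tested, and 3 of 10 had an unadjusted p under 0.05 (IER3, JUN and EGR1). All 10 differences were positive or, in ATF3, close to 0, with a median of 0.92 against 0.011 over all genes. MYC had the largest difference, 2.48 (SE 1.14, adjusted p = 0.259), followed by IER3 with 1.92 (SE 0.704, adjusted p = 0.162), JUN with 1.21 (SE 0.498, adjusted p = 0.208) and JUNB with 0.94 (SE 0.545, adjusted p = 0.374). FOSB and EGR1 both had 0.92 (SE 0.427, adjusted p = 0.262, and SE 0.350, adjusted p = 0.176), and DUSP1 had 0.63 (SE 0.750, adjusted p = 0.687).

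FOS had 0.75 (SE 1.19, adjusted p = 0.770), a value that turned to -0.74 without control-2, the control library in which it was low. IER2 had 0.23 (SE 0.177, adjusted p = 0.526) and ATF3 0.0016 (SE 0.533, adjusted p = 0.999), a value that was negative in 10 of 19 alternatives. Without 40Gy-1, EGR1 passed the threshold (adjusted p = 0.0239, range 0.0239 to 0.606 over its alternatives). In FOSB and EGR1, 2 of the 10 genes, all irradiated libraries lay above control without overlap, which held for 5.42% of all genes. The exact two-sided permutation test of 9 irradiated against 2 control libraries, which can reach no p below 0.0182, gave its smallest p of 0.0727 for FOSB and EGR1, or 0.273 after Benjamini-Hochberg adjustment over the 10 tests. In bulk liver, a change in the number of cells of a type and a change in RNA per cell cannot be told apart in any of these differences.

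Single lower doses gave no call either. At 20 Gy against control 0 of 10 genes were called by limma, against 4.23% of all genes, with 3 at an unadjusted p under 0.05, and the log2 differences ran between -0.16 in ATF3 and 3.04 in MYC. At 30 Gy against control 0 of 10 were called, against 3.03% of all genes, with 0 at an unadjusted p under 0.05, and the differences ran between -0.69 in ATF3 and 1.46 in MYC. At 30 Gy against 20 Gy, 0 of 10 were called, against 0% of all genes (0 of 11644 by limma, 280 at an unadjusted p under 0.05). All 10 differences were negative, between -1.58 in MYC and -0.32 in IER2, and none of the 10 had an unadjusted p under 0.05. These counts were 0 as well under each of the settings for the near-identical libraries.

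At 40 Gy against control, IER3 rose, by 3.29 on the log2 scale (SE 0.822, 95% interval 1.46 to 5.12, adjusted p = 0.0403), which is 9.78-fold on the FPKM + 1 scale and higher in 3 of 3 libraries. It was the 1 call among the 10 genes, against 7.39% of all genes in either direction and 2.99% upward. All 10 differences were positive, with a median of 1.04 against 0.057 over all genes, and 4 had an unadjusted p under 0.05 (IER3, IER2, JUNB and EGR1). In 9 of 10 genes, all but FOS, the 3 libraries at 40 Gy lay above both controls, which held for 19.5% of all genes.

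The call of IER3 at 40 Gy lay near the threshold. It was lost without control-1 (adjusted p = 0.207), control-2 (0.138), 20Gy-1 (0.0518), 20Gy-3 (0.0534), 30Gy-2 (0.0549), 40Gy-2 (0.107) or 40Gy-3 (0.0808), with quantile normalization (0.0532), and with the 30 Gy pair averaged (0.0519) or both settings (0.0552). It held with the cross-dose pair omitted (0.0209), and its adjusted p ranged from 0.0153 to 0.207 over 19 alternatives, with a log2 change of 2.89 to 3.69.

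The other genes at 40 Gy did not pass the threshold against control. EGR1 had 1.46 (SE 0.409, adjusted p = 0.0588) and IER2 0.74 (SE 0.207, adjusted p = 0.0604), both with 95% intervals above 0 (0.56 to 2.37 and 0.28 to 1.20). JUNB had 1.63 (SE 0.637, adjusted p = 0.145), MYC 2.93 (SE 1.33, adjusted p = 0.207) and JUN 1.17 (SE 0.582, adjusted p = 0.246). FOSB had 0.90 (adjusted p = 0.296), ATF3 0.86 (adjusted p = 0.425), DUSP1 0.50 (adjusted p = 0.762) and FOS 0.37 (adjusted p = 0.900), the last of which was -1.11 without control-2. Without 40Gy-1, EGR1 (adjusted p = 0.00327), IER2 (0.0406) and JUNB (0.0454) were called, as was IER2 with quantile normalization (0.0458). Over their alternatives the adjusted p ran from 0.00327 to 0.272 for EGR1, from 0.0406 to 0.316 for IER2 and from 0.0454 to 0.388 for JUNB.

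Between doses, IER3 and IER2 rose at 40 Gy against the lower doses. IER2 rose by 0.76 (SE 0.161, adjusted p = 0.00989), or 1.70-fold on the FPKM + 1 scale, and IER3 by 2.06 (SE 0.637, adjusted p = 0.0437), or 4.17-fold. These were 2 of 10 genes called, against 21.5% of all genes in either direction and 11.8% upward. The share was thus close to that of all genes called in either direction. Both lay above every 20 Gy and 30 Gy library in 3 of 3 libraries, which held for 13.0% of all genes, and also above control, which held for 7.69%.

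The call of IER2 was lost without 40Gy-2 (adjusted p = 0.0578) and with both settings for the near-identical libraries (0.139), and held with the 30 Gy pair averaged (0.0223) or the cross-dose pair omitted (0.0393), with a range of 0.00910 to 0.139. That of IER3 was lost without any single library at 40 Gy (0.0601 without 40Gy-1, 0.136 without 40Gy-2, 0.117 without 40Gy-3) and without either control (0.0616 and 0.0615 without control-1 and control-2). It was also lost without 20Gy-3 (0.0521), without 30Gy-1 (0.0819) or without 30Gy-2 (0.0827), with the 30 Gy pair averaged (0.0824) and with both settings (0.0645). A pseudocount of 0.1 FPKM (0.0504), quantile normalization (0.0569) and median-ratio scaling (0.0554) ended it as well. It held with the cross-dose pair omitted (0.0153), and its range was 0.0108 to 0.136.

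The remaining 8 genes did not pass the threshold between 40 Gy and the lower doses. ATF3 had 1.29 (SE 0.482, adjusted p = 0.0807), JUNB 1.04 (SE 0.493, adjusted p = 0.152), EGR1 0.82 (SE 0.317, adjusted p = 0.0903) and MYC 0.68 (SE 1.03, adjusted p = 0.659). FOS had -0.56 (SE 1.08), DUSP1 -0.20 (SE 0.679), JUN -0.06 (SE 0.451) and FOSB -0.03 (SE 0.387), with adjusted p from 0.734 to 0.961, and with the cross-dose pair omitted all 4 turned positive (0.40, 0.42, 0.20 and 0.13). ATF3 was called without 30Gy-3 (adjusted p = 0.0338) and with the cross-dose pair omitted (0.0332), and EGR1 (0.00458) and JUNB (0.0489) without 40Gy-1. Their adjusted p ranged from 0.0332 to 0.189 for ATF3, from 0.00458 to 0.389 for EGR1 and from 0.0489 to 0.431 for JUNB.

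**Figure D3:**
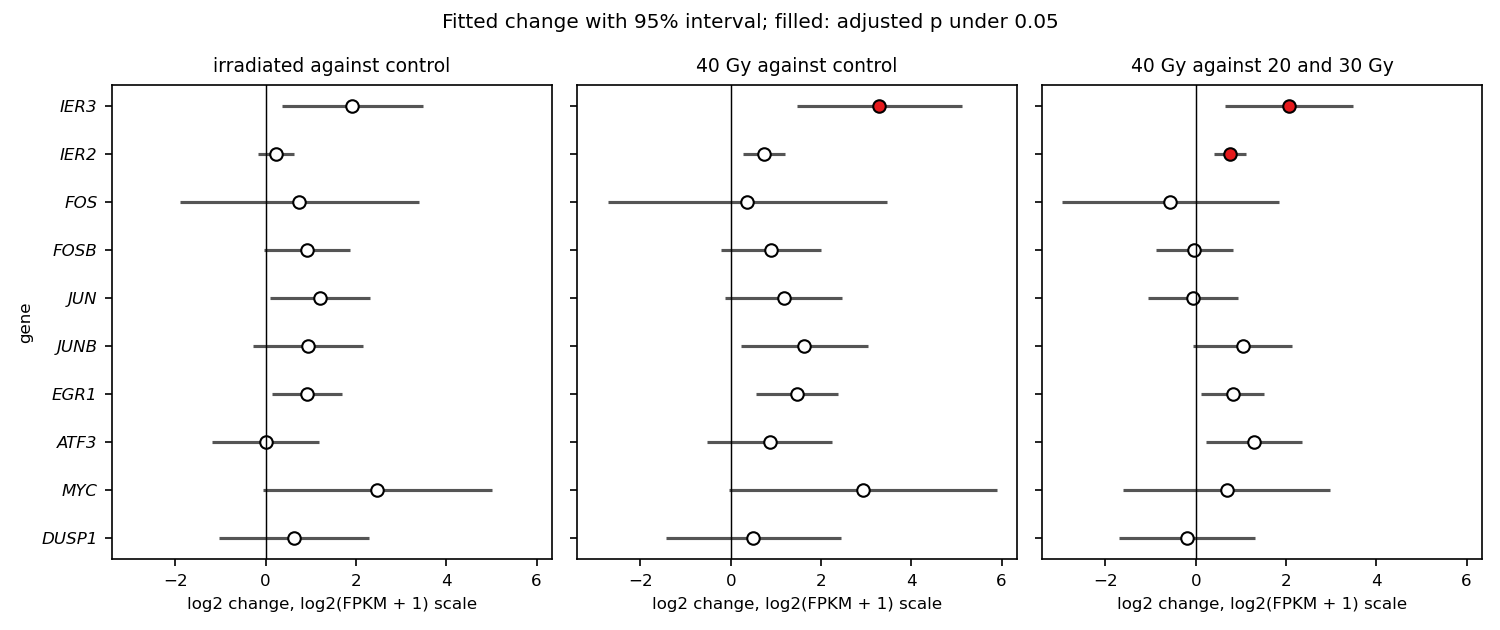
Fitted log2 change of each gene with its 95% interval, on the log2(FPKM + 1) scale of the limma fit, for irradiated against control, 40 Gy against control and 40 Gy against the lower doses, filled where the adjusted p was under 0.05. IER3 is filled at 3.29 and 2.06 and IER2 at 0.76, no gene is filled in the first panel, and the intervals of FOS and MYC are the widest.

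Markers of cell types differed between groups and between libraries. The summed level of 10 of 10 hepatocyte markers was 40416 to 63729 FPKM in control, 44099 to 50326 at 20 Gy, 48318 to 54410 at 30 Gy and 16842 to 23369 at 40 Gy, and no hepatocyte marker was at 0 in any library. The sums at the lower doses thus lay within the control range and those at 40 Gy below it. A sum follows its most abundant genes, and single markers could differ from it. TAT, 1 of the 10 hepatocyte markers, had 261 and 302 FPKM in control and 171, 2427 and 2026 FPKM at 40 Gy. It had 1033, 243 and 909 FPKM at 20 Gy, and 213, 212 and 913 FPKM at 30 Gy. The 9 of 9 endothelial markers summed to 153 to 229 FPKM at 20 Gy, 158 to 179 at 30 Gy and 238 to 322 at 40 Gy, against 351 and 380 FPKM in control, so every irradiated library lay below both controls. The 9 of 9 stellate cell and myofibroblast markers summed to 130 to 179 FPKM at 20 Gy and 125 to 154 at 30 Gy, against 53.7 and 73.0 FPKM in control, without overlap. T and NK cell markers (6 of 8) summed to 19.3 to 21.6 FPKM at 20 Gy, 16.3 to 21.0 at 30 Gy and 9.21 to 34.8 at 40 Gy, against 13.1 and 11.6 FPKM in control. The 4 of 8 neutrophil markers in the table (CSF3R, S100A8, S100A12 and MPO) summed to 1.65 to 4.74, 1.24 to 1.75, 1.25 to 1.36 and 8.42 to 18.2 FPKM in control and at 20 Gy, 30 Gy and 40 Gy, with S100A8 listed at 0 in 4 libraries and S100A12 in 2. The 4 of 6 B and plasma cell markers summed to 71.2 to 110 FPKM at 40 Gy against 40.2 to 45.5 FPKM in all other libraries. 40Gy-1, the library in which ATF3, JUN and FOSB were highest and FOS, JUNB, EGR1, MYC and DUSP1 lowest among the 40 Gy libraries, had 371 FPKM of the stellate cell and myofibroblast markers, against 51.3 and 42.6 FPKM in 40Gy-2 and 40Gy-3. It also had 1179 FPKM of the macrophage markers, against 524 and 519 FPKM. The part of these cells in the levels of IER3, IER2 and the other genes was not tested.

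Among related genes, few were called in irradiated against control liver. Of 32 other immediate early genes 3 rose and 1 fell, beside 4.71% of all genes called in either direction. RHOB, a small GTPase induced by DNA damage, rose by 1.64 (SE 0.212, adjusted p = 0.00300), CCN2, a matrix-associated growth regulator, by 1.02 (SE 0.209, adjusted p = 0.0238) and the transcription factor KLF4 by 0.69 (SE 0.162, adjusted p = 0.0383), whereas the TGF-beta-induced factor KLF10 had -1.38 (SE 0.203, adjusted p = 0.00491). RHOB had 58.5 to 101 FPKM in the irradiated libraries and 20.9 to 29.5 FPKM in control, with no overlap. Of the 28 signalling genes 1 rose, the SRF coactivator MRTFA (1.20, SE 0.245, adjusted p = 0.0230), of 8 genes of the MYC network 1 fell, MLX (-0.75, SE 0.161, adjusted p = 0.0281), and of 21 listed targets 1 rose, the cyclin CCND1 (2.34, SE 0.289, adjusted p = 0.00249). The counts in signalling genes and targets were close to the share of all genes called in either direction, while 217 of all 11644 genes were called upward. No gene was called among 9 other AP-1 factors, 24 feedback inhibitors and 15 heat shock genes, where 2, 3 and 3 had an unadjusted p under 0.05 and the largest differences were FOSL2 with 0.79 (adjusted p = 0.489), DUSP2 with 2.24 (adjusted p = 0.177) and BAG3 with 1.18 (adjusted p = 0.181). Median differences were 0.42 in other immediate early genes, 0.28 in feedback inhibitors and -0.33 in heat shock genes, against 0.011 over all genes. Calls were lost without control-2 for RHOB (0.0638), KLF10 (0.0892), CCN2 (0.170), KLF4 (0.248), MRTFA (0.225) and MLX (0.110), and without control-1 for CCN2 (0.182), KLF4 (0.201), MRTFA (0.121) and MLX (0.246). Single irradiated libraries ended those of CCN2 (20Gy-1, 0.0506), of MLX (30Gy-1 0.0526, 30Gy-2 0.0606, and at the lowest dose 20Gy-1 0.0622 and 20Gy-3 0.0522) and of KLF4 (30Gy-3 0.0638, 30Gy-2 0.0595, 30Gy-1 0.0798, 40Gy-2 0.0649, 20Gy-2 0.0582, 20Gy-1 0.0726), and BAG3 was called without 40Gy-1 (0.0240). With both settings for the near-identical libraries, CCND1 alone of these 7 kept its call, and quantile normalization ended that of KLF4 (0.0834). Over all 19 alternatives, the call was lost in 12 for KLF4 and in 10 for MLX.

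At 40 Gy against control, RHOB rose by 1.77 (SE 0.248, adjusted p = 0.00380), IER5, a partner of heat shock factor 1, by 1.17 (SE 0.279, adjusted p = 0.0341) and KLF4 by 0.89 (SE 0.189, adjusted p = 0.0210), and KLF10 fell by 0.97 (SE 0.238, adjusted p = 0.0378), which made 3 up and 1 down of 32 other immediate early genes, beside 7.39% of all genes called. Of 24 feedback inhibitors 1 rose, the MAP kinase phosphatase DUSP8 (1.95, SE 0.419, adjusted p = 0.0221), and of 28 signalling genes MRTFA (1.09, SE 0.286, adjusted p = 0.0466). Of 21 targets 2 rose, CCND1 (2.12, SE 0.337, adjusted p = 0.00662) and the matrix protease MMP2 (1.75, SE 0.291, adjusted p = 0.00787). The counts in these last 3 lists were near or below the share of all genes called in either direction. Upward, 2.99% of all genes were called. The upward counts in other immediate early genes and targets lay above that share, and those in feedback inhibitors and signalling genes were near it. None was called of 9 AP-1 factors, 8 MYC network genes and 15 heat shock genes, where 1, 2 and 2 had an unadjusted p under 0.05, with MAFF at 1.74 (adjusted p = 0.0840), MXD4 at -0.70 (adjusted p = 0.197) and BAG3 at 1.71 (adjusted p = 0.0823). Without control-1 the calls of CCND1 (0.0699), DUSP8 (0.166), IER5 (0.190), KLF4 (0.107), MMP2 (0.0536) and MRTFA (0.149) were lost, and without control-2 those of DUSP8 (0.0725), IER5 (0.118), KLF10 (0.244), KLF4 (0.111), MMP2 (0.0612) and MRTFA (0.228). Without 40Gy-2 those of DUSP8 (0.0592), IER5 (0.103), KLF10 (0.102), KLF4 (0.0712) and MRTFA (0.142) were lost, and without 40Gy-3 that of KLF10 (0.0832). Those of IER5, KLF10 and MRTFA were also lost without 1 or more of the lower-dose libraries (0.0517 to 0.0769: 20Gy-1 and 30Gy-1 in all of them, 20Gy-2 in MRTFA, 20Gy-3 in IER5 and KLF10, 30Gy-2 in KLF10 and MRTFA, 30Gy-3 in MRTFA). Without 40Gy-1, BAG3 (0.00453), MAFF (0.0476) and MXD4 (0.0191) were called, as was MAFF without 30Gy-3 (0.0309). With both settings for the near-identical libraries, RHOB, CCND1 and MMP2 kept their calls, and quantile normalization ended those of IER5 (0.0540) and MRTFA (0.0612). Over all 19 alternatives, the call was lost in 12 for MRTFA, in 11 for KLF10 and in 9 for IER5.

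At 40 Gy against the lower doses, 1 of 9 AP-1 factors rose, 6 of 32 other immediate early genes rose and 1 fell, and 4 of 24 feedback inhibitors rose. Of 28 signalling genes 3 rose and 1 fell, of 15 heat shock genes 1 rose and 1 fell, of 21 targets 5 rose, and of 8 MYC network genes 0 were called, with 2 at an unadjusted p under 0.05. With 21.5% of all genes called in either direction, each list's calls in both directions together were near or below that share. Upward, 11.8% of all genes were called. The upward counts in targets, other immediate early genes and feedback inhibitors lay above that share, and those in the other lists were near or below it. These differences from the share were not tested. In each list the called gene with the largest change was the small MAF protein MAFF (1.79, SE 0.426, adjusted p = 0.0164), the survival protein MCL1 (1.43, SE 0.284, adjusted p = 0.00769), the EGR1 corepressor NAB2 (1.40, SE 0.345, adjusted p = 0.0189), the kinase MAPKAPK2 (1.16, SE 0.243, adjusted p = 0.00984), the small heat shock protein CRYAB (-2.38, SE 0.718, adjusted p = 0.0403) and the polyamine enzyme ODC1 (1.19, SE 0.359, adjusted p = 0.0404). CRYAB had 169, 14.6 and 10.8 FPKM at 40 Gy and 127 to 209 FPKM at the lower doses, so 40Gy-1 lay within the range of these. The call of MCL1 held without each single library. Without 40Gy-2 those of MAFF (0.0818), NAB2 (0.0866), MAPKAPK2 (0.0602), CRYAB (0.183) and ODC1 (0.117) were lost, and without 40Gy-3 those of MAFF (0.0646), NAB2 (0.0743), CRYAB (0.171) and ODC1 (0.0948). CRYAB lost its call too without each other library but 40Gy-1 (0.0507 to 0.0738), and ODC1 lost its own without control-1 (0.0576), control-2 (0.0575), 20Gy-1 (0.0831), 20Gy-3 (0.0816) and 40Gy-1 (0.0702). With both settings for the near-identical libraries, MAFF alone of these genes kept its call. Over all 19 alternatives, the call was lost in 14 for CRYAB, in 9 for ODC1 and in 4 for NAB2. In the MYC network MNT had 0.74 (adjusted p = 0.0774) and was called without 40Gy-1 (0.0318).

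**Figure D4:**
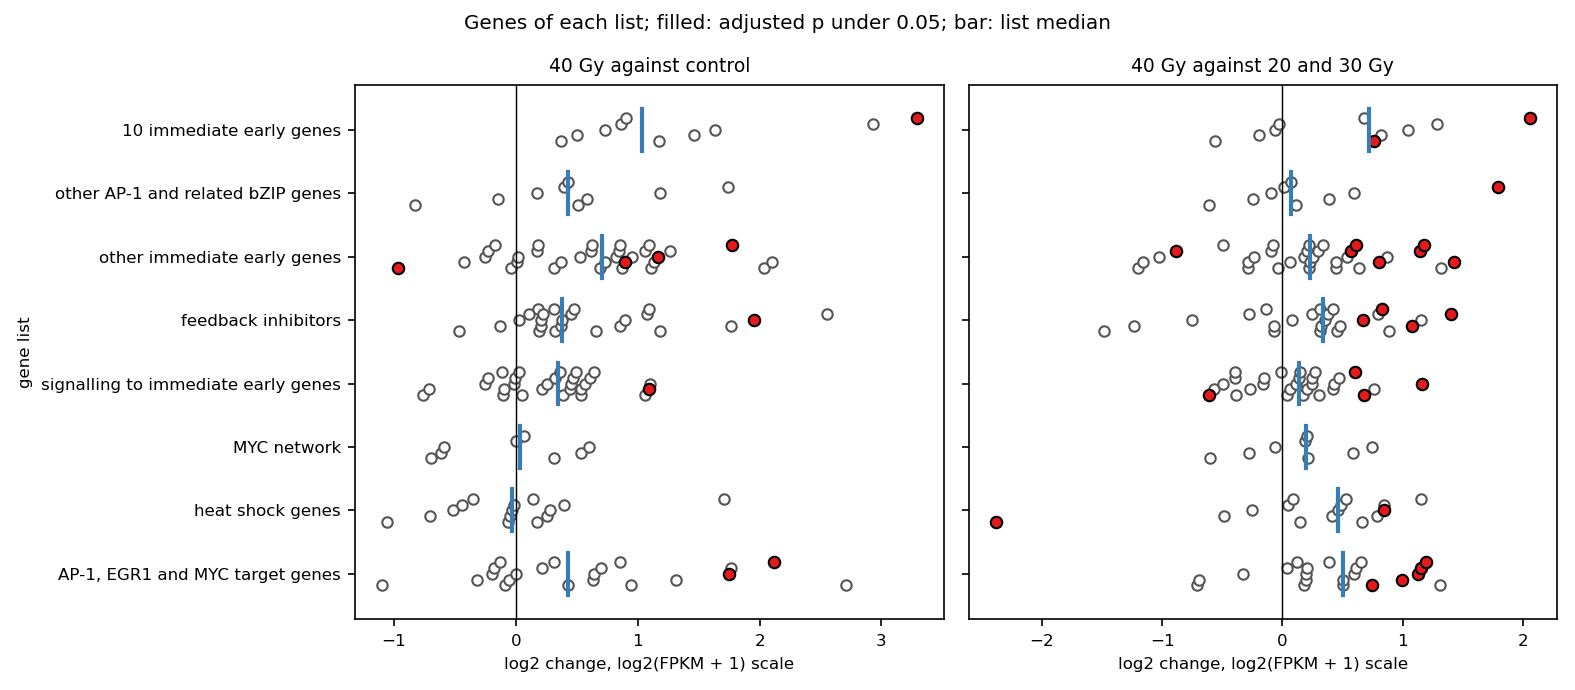
Log2 change of every tested gene of the 10 immediate early genes and of 7 related lists, on the log2(FPKM + 1) scale, at 40 Gy against control (left) and against the lower doses (right), with a bar at each list's median and filled points at an adjusted p under 0.05. The medians of the 10 genes were 1.04 and 0.72, and most points of every list are unfilled.

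The genes whose levels followed the median of the 10 most closely were found among 5822 genes with a symbol and a mean of at least 5 FPKM, by the mean absolute difference of standardised log2 levels over the 11 libraries. The nearest were the phosphatase PPM1B (0.242 SD), the RNA-binding protein QKI (0.245 SD), ZFP36, which speeds decay of AU-rich messages (0.259 SD), the tyrosine phosphatase PTPN1 (0.261 SD) and the AP-1 subunit FOSL2 (0.267 SD). Standardising removes the size of a change. PPM1B ranged only from 6.80 to 15.1 FPKM over the libraries and QKI from 7.75 to 11.9 FPKM, against 5.22 to 159 FPKM for MYC. Of the 10 genes themselves MYC was nearest to that median (0.210 SD), followed by IER3 (0.247 SD), and IER2 was farthest (0.810 SD), with ATF3 at 0.517 SD, FOS at 0.559 SD and EGR1 at 0.598 SD. ZFP36 had 44.6 and 30.8 FPKM in control, 263, 49.9 and 191 FPKM at 20 Gy, 36.6, 36.9 and 194 FPKM at 30 Gy, and 74.6, 196 and 146 FPKM at 40 Gy. It thus shared the high libraries of the lower doses with MYC and DUSP1 and, like JUNB, was higher in 40Gy-2 and 40Gy-3 than in 40Gy-1.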

How the data were processed

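RNA of 11 pig liver libraries was measured by paired-end sequencing of TruSeq libraries, per the labels' protocols. The authors deposited 1 table of FPKM with 12505 genes, all of whose 11 value columns were mapped to samples by name (0 columns unused). Per the submitters' processing notes, which state no roles, the tools were HISAT2, Cufflinks and HTSeq and the builds Sscrofa11.1 and mm10, and the gene IDs are those of pig. FPKM scales by library total, so a few abundant genes can lower all others. No whole-read steps were found in the low values (the fullest bin held 1.09% to 7.14% of low genes), so the depth is unknown, and neither counting intervals nor detection floors can be given.

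Values were analysed as log2(FPKM + 1), which understates the change of low genes. A gene was tested if 2 or more libraries had at least 1 FPKM (11644 genes). The 11 libraries entered a single model of 4 group means in limma 3.58.1 (under R 4.3.3; eBayes with trend, 7 residual degrees of freedom), with two-sided tests and Benjamini-Hochberg adjustment over all genes tested. The fit was tested on simulated data. Alternatives were a pseudocount of 0.1 FPKM, no filter, quantile normalization, median-ratio scaling, a block for the library number, the near-identical libraries averaged or left out, and each library left out.

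The members and lists were chosen with earlier results of these data known. Text names all 10 genes and, per related list, up to 5 called genes with the largest change (the first alone in 40 Gy against the lower doses), or the largest change where none was called, and the 5 nearest profiles. Coordinates are from the RefSeq gene table of Sscrofa11.1. Same-numbered libraries did not deviate together throughout (correlation of deviations from group means -0.616 to 0.645), so numbers were not taken to pair libraries.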

Additional observations from a re-analysis of the deposited data

How the results depend on the processing

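Of the 10 genes 0 were called in irradiated against control, 1 at 40 Gy against control and 2 at 40 Gy against 20 and 30 Gy. Leaving out 1 library at a time, these counts ranged from 0 to 1, from 0 to 4 and from 0 to 3, and were 0 in the other comparisons. The last was 1 (IER2) with a pseudocount of 0.1 FPKM, quantile normalization, median-ratio scaling or the 30 Gy pair averaged, and 0 with both settings for the near-identical libraries. At 40 Gy against control it was 0 with the pair averaged and with both settings. All genes called (548 irradiated, 492 at 20 Gy, 353 at 30 Gy, 861 at 40 Gy, 2508 at 40 Gy against the lower doses, 0 at 30 Gy against 20 Gy) ranged with 1 library left out from 80 to 1416, 118 to 1644, 75 to 1110, 224 to 2655, 846 to 4611 and 0 to 3. They were 337, 295, 130 and 548 in the control comparisons with the pair averaged. With the cross-dose pair omitted they were 290, 206, 126, 551, 1177 and 2, and with both settings 42, 59, 8, 123, 202 and 1.

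The reversals of direction among the 10 genes were in differences that were not called. ATF3, irradiated against control, was -0.069 with the smaller pseudocount, -0.034 with quantile normalization and -0.30 with the cross-dose pair omitted, whether or not the 30 Gy pair was averaged. At 40 Gy against the lower doses FOSB was 0.054 and 0.036 with the smaller pseudocount and quantile normalization. Omitting the cross-dose pair gave FOSB 0.13, FOS 0.40, JUN 0.20 and DUSP1 0.42, and both settings gave 0.12, 0.40, 0.20 and 0.42. With 1 library left out ATF3 ranged from -0.18 to 0.19 and FOS from -0.74 to 2.23 in irradiated against control, and FOS from -1.11 to 1.85 at 40 Gy against control. Against the lower doses FOS ranged from -1.17 to 0.036, FOSB from -0.29 to 0.20, JUN from -0.48 to 0.32 and DUSP1 from -0.61 to 0.25. The cause was not tested.

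With the library number as a replicate block, limma called 0 of the 10 genes at 40 Gy against control (IER3 adjusted p = 0.0514, range 0.0153 to 0.207, with 805 genes called in all) and 3 against the lower doses, ATF3 added (0.0445). In irradiated against control the block gave FOS -0.0046 and ATF3 -0.26. At 40 Gy against control it gave FOS -0.38, and ATF3 stayed positive (0.59). The labels do not say that the numbers pair libraries, and not every same-numbered pair deviated together.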

Other observations

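JUNB lies on chromosome 2 between PRDX2, 2611 bases away, and HOOK2, 8126 bases away. HOOK2, which stood eighth among the profiles nearest to the median of the 10 genes (0.282 SD), had 4.16 and 2.94 FPKM in control, 9.25, 3.56 and 8.12 FPKM at 20 Gy, 2.89, 3.27 and 7.83 FPKM at 30 Gy, and 4.78, 10.1 and 9.61 FPKM at 40 Gy. It followed the order of JUNB in being high in 20Gy-1, 20Gy-3, 30Gy-3, 40Gy-2 and 40Gy-3, and was looked up after its profile had been seen. The nearer neighbour PRDX2, a peroxiredoxin, did not follow that order, with 254 and 203 FPKM in control, 119, 236 and 162 FPKM at 20 Gy, 282, 292 and 163 FPKM at 30 Gy, and 119, 96.5 and 134 FPKM at 40 Gy.

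GADD45B and TNFAIP3, listed as related genes, were high in 20Gy-1, 20Gy-3 and 30Gy-3 and far below these in every library at 40 Gy. GADD45B, a growth arrest and stress gene, had 4.31 and 2.04 FPKM in control, 44.3, 9.47 and 41.5 FPKM at 20 Gy, 8.07, 6.54 and 41.8 FPKM at 30 Gy, and 7.32, 8.55 and 6.94 FPKM at 40 Gy, where each library was still above both controls. TNFAIP3 had 3.17, 2.38 and 1.68 FPKM at 40 Gy, where IER3 was at its highest, and 2.99 and 2.40 FPKM in control. The glucocorticoid-induced kinase SGK1 was likewise highest in 20Gy-1, 20Gy-3 and 30Gy-3. It had 190, 36.6 and 218 FPKM at 20 Gy and 39.2, 39.4 and 223 FPKM at 30 Gy. Unlike GADD45B and TNFAIP3, SGK1 was also high in 40Gy-2 and 40Gy-3, as JUNB was. It had 39.9, 163 and 180 FPKM at 40 Gy and 25.7 and 22.1 FPKM in control. These genes were chosen after their values had been seen, and the differences between them were not tested.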
